A study of Mus musculus with 9 samples.

Results

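The platelet surface receptors and glycoproteins described here are 10 genes: Itga2b and Itgb3 (the fibrinogen receptor integrin), Gp1ba, Gp1bb, Gp9 and Gp5 (the von Willebrand factor receptor complex), Gp6 (the collagen receptor), Clec1b (the podoplanin receptor), Treml1 and Cd9. They were taken by symbol, with all their probe sets. For 9 of the 10 genes the annotation gave at least 1 probe set of its own, 11 in all, and a further probe set carried the names of both Septin5 and Gp1bb, so that 12 of the 45101 probe sets on the array were described. No probe set was named for Gp1ba, so it was not analysed here. The 9 measured genes stood among 18193 genes tested.

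LSK cells, the lineage-negative, Sca-1-positive, c-Kit-positive bone marrow fraction that holds hematopoietic stem and early progenitor cells, were purified from wild-type C57/Bl6 mice and cultured for 3 days on feeder layers of OP9, a stromal line derived from mouse bone marrow. The 3 groups, each of 3 arrays, were cultures on OP9-GFP, the control feeder, on OP9-DL1, a feeder made to carry the Notch ligand Delta-like 1, and on OP9-DL1 with 1 µM CompoundE, an inhibitor of the γ-secretase that releases the active part of Notch. All groups shared the culture time and used feeders made from OP9. Only cells that had not attached were harvested, so each array measured the whole harvest rather than a sorted cell type. Whether replicates came from different mice or culture wells is not stated in the labels; the p-values therefore reflect variation among these arrays alone, and part or all of it may be technical. Values are log2 expression per probe set; a difference of 1 is a 2-fold change.

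Megakaryocytes, the bone marrow cells that shed platelets, switch on platelet surface genes as they mature from progenitors. Itga2b appears earliest, and low levels are also known from stem cells and mast cell progenitors, while the Gp genes mark more committed cells. On the platelet, the von Willebrand factor complex tethers the cell to injured vessel wall, Gp6 and Clec1b signal through Syk, and the integrin then binds fibrinogen and links platelets to each other. Itgb3 and Cd9 are not restricted to this lineage: macrophages and stromal cells express both, Itgb3 there as the partner of Itgav.

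The labels were checked with Nrarp, a direct Notch target, which averaged 6.61 in the control cultures, 9.30 with Delta-like 1 and 5.02 once the inhibitor was added, and whose groups kept apart. The leukocyte gene Ptprc was bright in all groups (11.53, 11.38 and 11.59), and the progenitor genes Kit (8.94, 10.22 and 8.14) and Cd34 (10.90 with CompoundE to 11.35 on OP9-GFP) were well above the values of the array's bacterial control probe sets, which reached 3.64 at most. All 12 probe sets lay above that level on every array.

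The DNA before the start site is shown for Itga2b and for Gp1bb, Gp9 and Gp5. Any part of it in the changes was not tested. The sequences are the 250 bases before the RefSeq start in GRCm38.p6, 5′ to 3′ on the gene's strand, and 9 of the 10 genes had an entry (Itgb3 had none). Capitals mark matches, on either strand, to GATA words (AGATAA, the form AGATAG ending in G, the form TGATAA starting with T, and the form TGATAG that does both), ETS words (AGGAAG, and the form CGGAAG starting with C), the NF-E2 word TGAGTCA or the RBPJ word GTGGGAA. None of the matches overlapped another.
Itga2b, chr11:102469884-102470133, strand minus: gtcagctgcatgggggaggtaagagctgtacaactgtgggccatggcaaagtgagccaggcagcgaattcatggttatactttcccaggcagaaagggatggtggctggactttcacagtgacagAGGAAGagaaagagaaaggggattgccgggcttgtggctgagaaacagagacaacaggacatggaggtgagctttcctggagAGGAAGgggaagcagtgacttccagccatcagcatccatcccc
Gp1bb, chr16:18622404-18622653, strand minus: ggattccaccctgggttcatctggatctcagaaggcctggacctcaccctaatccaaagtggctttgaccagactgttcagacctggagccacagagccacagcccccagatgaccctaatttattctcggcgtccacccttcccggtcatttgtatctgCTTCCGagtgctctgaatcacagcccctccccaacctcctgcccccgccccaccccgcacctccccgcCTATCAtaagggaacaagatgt
Gp9, chr6:87777820-87778069, strand plus: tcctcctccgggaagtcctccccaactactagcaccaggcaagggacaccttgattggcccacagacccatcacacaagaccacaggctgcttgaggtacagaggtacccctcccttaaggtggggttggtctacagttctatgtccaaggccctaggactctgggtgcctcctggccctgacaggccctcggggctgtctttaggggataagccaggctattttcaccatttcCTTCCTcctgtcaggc
Gp5, chr16:30310782-30311031, strand minus: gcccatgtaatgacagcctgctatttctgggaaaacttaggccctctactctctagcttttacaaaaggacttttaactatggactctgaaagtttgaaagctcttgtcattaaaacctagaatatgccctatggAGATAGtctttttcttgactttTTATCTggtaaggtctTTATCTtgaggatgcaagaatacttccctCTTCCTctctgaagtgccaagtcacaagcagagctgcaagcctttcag
The Itga2b window held 2 ETS matches, the nearer one 43 to 38 bases before the start, and no GATA match. Gp9 held 1 ETS match, 16 to 11 bases before the start. Gp5 held 3 GATA matches and 1 ETS match, and Gp1bb held 1 of each. Over the 9 entries, GATA words stood in 5 (Gp1ba, Gp1bb, Gp5, Gp6 and Clec1b), against 26.5% of 32851 RefSeq windows of the same length. ETS words stood in 6 (Itga2b, Gp1ba, Gp1bb, Gp5, Gp9 and Cd9), against 39.2% of windows, and both stood in 3 (Gp1ba, Gp1bb and Gp5), against 9.21%. The GATA, ETS and joint counts include Gp1ba, which had no probe set, so its expression was not measured. The NF-E2 word was in none of the 9 (4.46% of windows), and the RBPJ word, which the DNA-binding partner of Notch can bind, was in 1, Cd9 (5.42% of windows). Treml1 held no match. These are matches of letters in a short window and not binding sites.

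OP9-DL1 was compared with OP9-GFP, the control feeder. Other differences between the feeders cannot be told apart from the Notch ligand in this comparison. No group had CompoundE on OP9-GFP, so effects of the inhibitor that do not need the ligand cannot be told apart either. All 9 measured platelet surface genes rose, by 2.29-fold (Itgb3) to 4.07-fold (Gp1bb), where 15.9% of all genes tested were called higher (limma, Benjamini-Hochberg adjusted p below 0.05) and 4.11% were called and at least 2-fold higher. Their median change was 1.66, beside -0.02 for all genes. With CompoundE on OP9-DL1 the same 9 genes fell, by 2.46-fold (Gp6) to 5.91-fold (Itga2b), where 21.6% of all genes were called lower and 4.95% at least 2-fold lower, and their median change was -2.24 beside 0.08. Against OP9-GFP, 8 of the 9 genes were called lower with CompoundE, the exception being Gp6, where 10.6% of all genes were called lower, and no change reached 2-fold (0.753% of all genes were called and at least 2-fold lower). These comparisons share arrays, so they are not independent of each other. In a harvest of mixed cells, more cells of a type and more RNA per cell cannot be told apart.

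**Figure D1:**
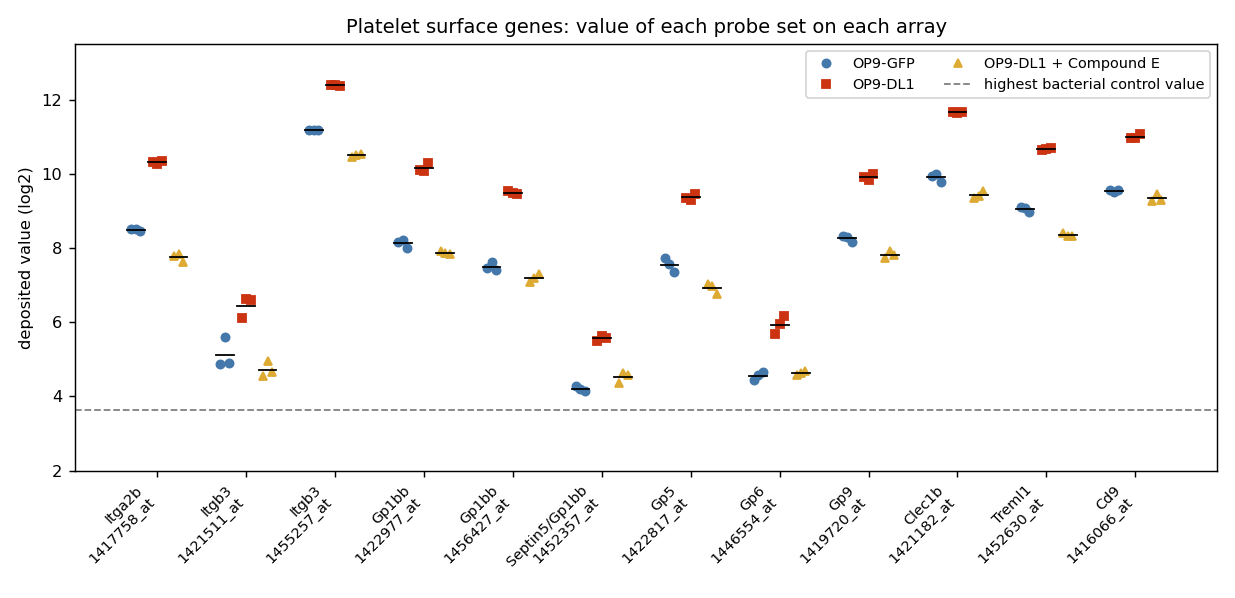
Deposited value (y axis, log2) of each of the 12 probe sets (x axis, gene and probe set) on each of the 9 arrays; points are arrays, black lines group means, and the dashed line is the highest value of a bacterial control probe set (3.64). For every probe set the 3 OP9-DL1 arrays lie above the other 6, and for all but Gp6, the dimmer Itgb3 probe set and the one shared with Septin5 the CompoundE arrays lie lowest. Levels of different probe sets cannot be compared.

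Itga2b and Itgb3 encode the α and β chains of the integrin that binds fibrinogen, and the α chain reaches the surface only when paired with the β chain. Itga2b read 8.51, 8.51 and 8.46 on OP9-GFP, 10.32, 10.27 and 10.35 on OP9-DL1, and 7.79, 7.84 and 7.61 with CompoundE. The 3 groups did not overlap, with OP9-DL1 highest and CompoundE lowest. The rise on OP9-DL1 was 1.82 ± 0.07 (SE, 3.53-fold, limma adjusted p = 5.3e-12) and the fall with CompoundE was -2.56 ± 0.07 (adjusted p = 5.66e-14). Itga2b ended 0.74 below the control feeder (difference -0.74 ± 0.07, adjusted p = 1.62e-06). Its rise ranked 194 and its fall 120 among the 18193 genes.

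Itgb3 was measured by 2 probe sets of very different brightness. The brighter one read 11.18, 11.19 and 11.19 on OP9-GFP, 12.40, 12.38 and 12.37 on OP9-DL1, and 10.47, 10.52 and 10.55 with CompoundE. Its groups did not overlap, and the SD within a group was at most 0.04. It rose by 1.20 ± 0.04 (SE, adjusted p = 1.31e-12) and fell by 1.87 with CompoundE, to 0.68 below OP9-GFP (difference -0.68 ± 0.04, adjusted p = 1.21e-08). The dimmer one read 4.86, 5.61 and 4.90, then 6.11, 6.62 and 6.60, then 4.55, 4.95 and 4.65. It gave a rise of 1.32 ± 0.20 and a fall of -1.73 ± 0.20, close in size to the brighter one. Its values on OP9-GFP and with CompoundE overlapped, and that difference was not called (-0.41, 95% confidence interval -0.83 to 0.02, adjusted p over all probe sets = 0.186). Itgav, which pairs with the same β chain in stromal cells and macrophages and was chosen after its values were seen, differed by 0.13 between OP9-DL1 and OP9-GFP (adjusted p = 0.153), which was called without OP9-GFP replicate 3 (0.19) or OP9-DL1 replicate 3 (0.21). With CompoundE Itgav fell by 0.23 (adjusted p = 0.00996), a call lost under 6 of 19 alternatives: with its 5 probe sets averaged (-0.02), arrays centred on their medians (-0.10), no intensity trend, a 2-fold threshold, or without OP9-DL1 replicate 1 or 2 (-0.19 in each case).

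Gp1bb, Gp9 and Gp5 are subunits of the complex that holds von Willebrand factor: Gp1bb is linked to the ligand-binding chain Gp1ba, Gp9 is needed for its assembly, and Gp5 is the looser, thrombin-cleaved subunit. Gp1bb read 8.16, 8.21 and 8.01 on OP9-GFP, 10.10, 10.06 and 10.29 on OP9-DL1, and 7.92, 7.87 and 7.83 with CompoundE. The OP9-DL1 arrays stood far above both other groups, which did not overlap but were close. Gp1bb had the largest rise of the 9 genes, 2.02 ± 0.08 (SE, 4.07-fold, adjusted p = 5.19e-12), and fell by 2.28 with CompoundE. Its other probe set rose by 2.0 ± 0.08 and fell by 2.30. The probe set named for both Septin5 and Gp1bb read 4.27, 4.19 and 4.15, then 5.49, 5.62 and 5.58, then 4.35, 4.64 and 4.57. It cannot be assigned to either gene. It moved less, by 1.36 ± 0.13 and -1.04 ± 0.13, and its CompoundE arrays lay above those of OP9-GFP, a difference of 0.31 that was not called over all probe sets (adjusted p = 0.122; 8.23% of all probe sets were called higher).

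Gp9 read 8.32, 8.30 and 8.17 on OP9-GFP, 9.93, 9.84 and 10.01 on OP9-DL1, and 7.74, 7.92 and 7.80 with CompoundE. It rose by 1.66 ± 0.07 (SE, 3.17-fold, adjusted p = 3.18e-11), fell by 2.11 with CompoundE and ended at -0.44 ± 0.07 relative to OP9-GFP (adjusted p = 0.000445). Gp5 read 7.72, 7.56 and 7.35 on OP9-GFP, 9.34, 9.31 and 9.46 on OP9-DL1, and 7.02, 6.98 and 6.75 with CompoundE. The groups of both genes kept apart in the order CompoundE, OP9-GFP, OP9-DL1, with the control arrays of Gp5 the more scattered (SD 0.19). Gp5 rose by 1.83 ± 0.10 (3.54-fold, adjusted p = 4.51e-10), fell by 2.45 and ended at -0.63 ± 0.10 (adjusted p = 0.00034). The rises of the 3 measured subunits thus ran from 1.66 to 2.02; differences between subunits were not tested.

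Gp6 and Clec1b are the platelet receptors that signal through tyrosine kinases, Gp6 after binding collagen and Clec1b after binding podoplanin. Gp6 read 4.43, 4.57 and 4.66 on OP9-GFP, 5.69, 5.94 and 6.16 on OP9-DL1, and 4.57, 4.64 and 4.68 with CompoundE. The OP9-DL1 arrays stood apart, while the values on OP9-GFP and with CompoundE overlapped. Gp6 rose by 1.38 ± 0.14 (SE, 2.60-fold, adjusted p = 7.59e-07) and fell by 1.30 (adjusted p = 1.02e-06). With log2(value + 32), which damps changes of dim probe sets, these were 0.75 and -0.71, both still called. Its difference between CompoundE and OP9-GFP was 0.08 with a 95% confidence interval of -0.22 to 0.38 (adjusted p = 0.737), wide for this dim probe set, so that a drop as small as that of Cd9 was not detectable.

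Clec1b read 9.95, 9.98 and 9.79 on OP9-GFP, 11.68, 11.64 and 11.66 on OP9-DL1, and 9.34, 9.39 and 9.53 with CompoundE. Again no group overlapped another, and the OP9-DL1 replicates had an SD of 0.02. Clec1b rose by 1.75 ± 0.06 (SE, 3.37-fold, adjusted p = 2.11e-12), fell by 2.24 with CompoundE and ended at -0.48 ± 0.06 relative to OP9-GFP (adjusted p = 3.69e-05).

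Their partner genes did not follow one pattern. Fcer1g, the γ chain without which Gp6 is not held at the surface and which macrophages and mast cells share, read 12.09, 12.11 and 12.09 on OP9-GFP, 11.54, 11.60 and 11.57 on OP9-DL1, and 12.35, 12.27 and 12.33 with CompoundE. It thus went the other way from Gp6: it fell by 0.53 on OP9-DL1 (adjusted p = 1.2e-08) and rose by 0.74 with CompoundE (adjusted p = 1.06e-10). Syk, the kinase used by both receptors and chosen after its values were seen, fell by 0.27 (adjusted p = 0.000816) and rose by 0.67. Lat, the adaptor on which their signals meet, read 6.92, 6.92 and 6.86, then 9.22, 9.21 and 9.26, then 6.23, 6.49 and 6.36. Lat rose by 2.33 ± 0.09 and fell by 2.87, values larger than those of the 9 platelet surface genes, although such differences were not tested. Pdpn, the ligand of Clec1b and a gene of stromal cells (chosen after its values were seen), averaged 6.74 in the control cultures, 5.94 on OP9-DL1 and 5.58 with CompoundE. Pdpn fell by 0.81 on OP9-DL1 (adjusted p = 0.00126), and its further difference of -0.36 with CompoundE was not called (adjusted p = 0.0951) except without OP9-DL1 replicate 1 (-0.51, adjusted p = 0.035).

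**Figure D2:**
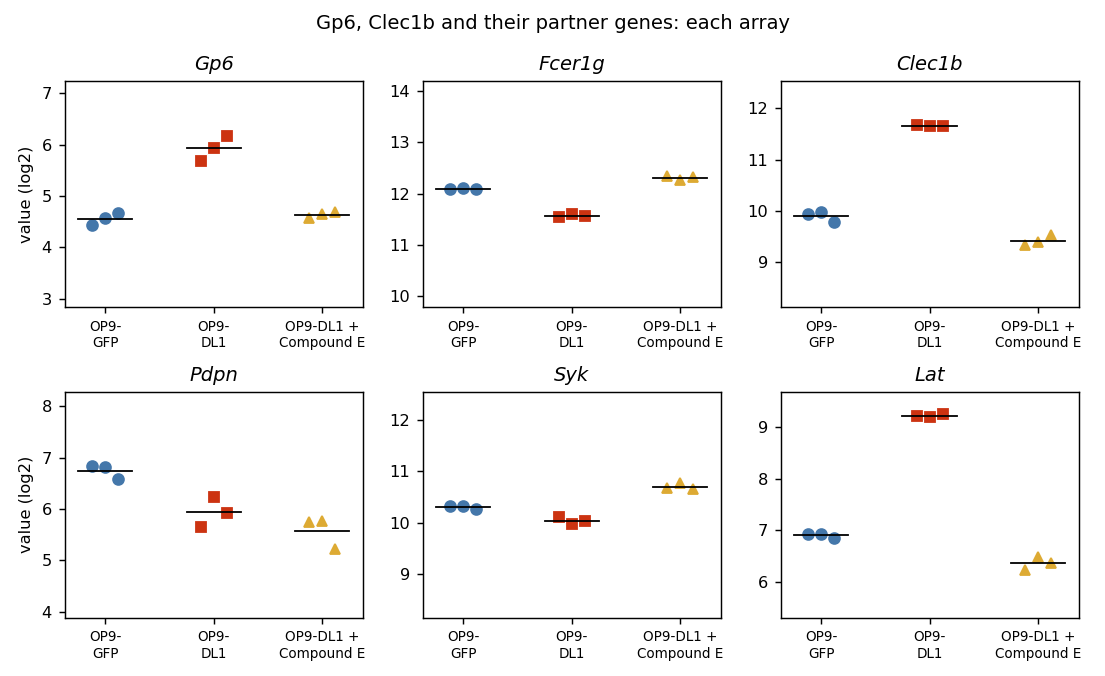
Value (y axis, log2, the same span in each panel) of Gp6, Clec1b, the shared γ chain Fcer1g, the Clec1b ligand Pdpn, the kinase Syk and the adaptor Lat on each array of the 3 groups; points are arrays and black lines group means. Gp6, Clec1b and Lat were highest on OP9-DL1, where Fcer1g and Syk were lowest.

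Treml1 encodes a receptor stored in platelet α-granules and brought to the surface on activation, and Cd9 a tetraspanin that is abundant on platelets and found on many other cells. Treml1 read 9.12, 9.08 and 8.98 on OP9-GFP, 10.65, 10.67 and 10.70 on OP9-DL1, and 8.40, 8.31 and 8.33 with CompoundE. The groups were well apart. It rose by 1.61 ± 0.06 (SE, 3.06-fold, adjusted p = 2.95e-12), fell by 2.33 and ended at -0.71 ± 0.06 relative to OP9-GFP (adjusted p = 3.83e-07). Cd9 read 9.56, 9.51 and 9.56 on OP9-GFP, 10.97, 10.96 and 11.07 on OP9-DL1, and 9.26, 9.46 and 9.29 with CompoundE. Here the CompoundE and control arrays were near each other, with CompoundE replicate 2 just below OP9-GFP replicate 2. Cd9 rose by 1.46 ± 0.06 (2.75-fold, adjusted p = 1.19e-11) and fell by 1.66.

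With CompoundE the genes ended at different distances from the control feeder. Itga2b (-0.74), Treml1 (-0.71), Itgb3 (-0.68) and Gp5 (-0.63) were lowest, followed by Clec1b (-0.48) and Gp9 (-0.44). Gp1bb (-0.25 ± 0.08, adjusted p = 0.027) and Cd9 (-0.20 ± 0.06, adjusted p = 0.0225) passed the test narrowly. Both calls ended without the intensity trend, on the 6 arrays alone, and with arrays centred on their medians, where Gp1bb stood at -0.16 (adjusted p = 0.109) and Cd9 at -0.11 (0.182), and over all alternatives the adjusted p ran from 0.00596 to 0.113 for Gp1bb and from 0.00325 to 0.182 for Cd9. Single arrays also decided them: the Gp1bb call ended without OP9-GFP replicate 1 or 2 or CompoundE replicate 2 or 3, and the Cd9 call without OP9-GFP replicate 1 or 3 or CompoundE replicate 1 or 3. That centring moved the median change of all genes from 0.08 to 0.21 for CompoundE against OP9-DL1 and from 0.05 to 0.14 against OP9-GFP, and the share of higher among called genes from 53.8% to 73.7% and from 53.4% to 78.2%. The large rises and falls of the 9 genes stayed called in the same direction under every alternative that kept the gene.

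**Figure D3:**
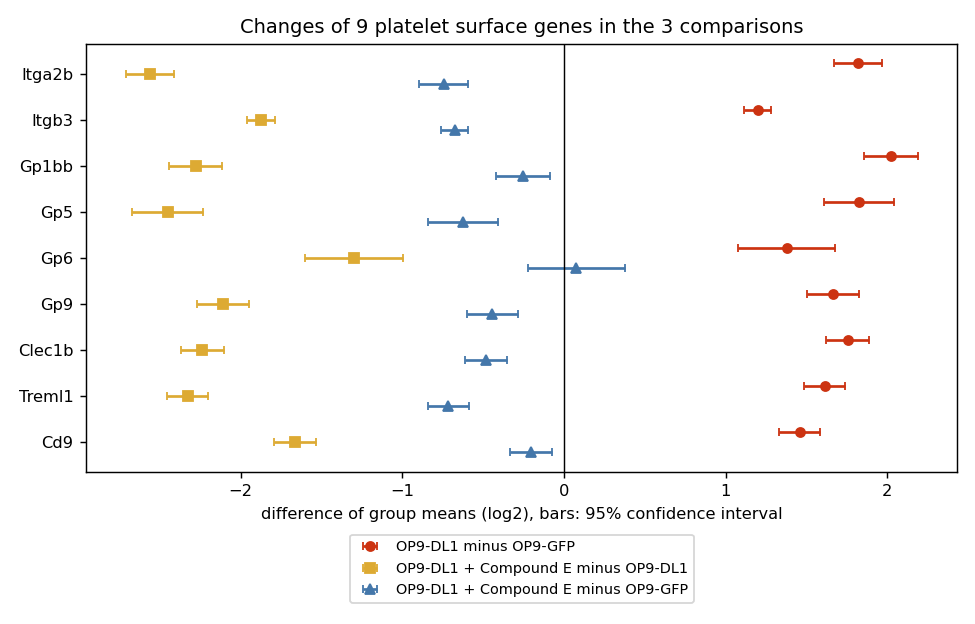
Difference of group means (x axis, log2) for each of the 9 genes (y axis) in the 3 comparisons; bars are 95% confidence intervals from limma. All rises on OP9-DL1 lie between 1.20 and 2.02 and all falls with CompoundE between -1.30 and -2.56, while the differences between CompoundE and OP9-GFP lie between -0.74 and 0.08.

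Counted by probe set, all 12 were called higher on OP9-DL1 (12.1% of all probe sets were) and all 12 lower with CompoundE (20%), and 9 were called lower with CompoundE than on OP9-GFP (10.7%). In the first pair of comparisons each of the 9 genes had its 3 arrays of one group wholly above the 3 of the other, where 20.8% of all genes lay wholly higher on OP9-DL1 and 23.2% wholly lower with CompoundE. For 8 genes the CompoundE arrays also lay wholly below those of OP9-GFP (15% of all genes). Equal values on 2 arrays of OP9-GFP occurred for Itga2b, Itgb3 and Cd9, and lower the spread behind their errors. Such values were common: 20489 of the 45101 probe sets were equal on 2 or more of the 9 arrays, within or between groups. Other named genes shared this. Pf4 was equal on all 3 OP9-GFP arrays, and Gfi1b, Lat, Esam, Fcer1g, Syk, Myct1 and P3h2, among others, on 2 of them.

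Profiles were compared, as a description, by the root mean square difference between pairs of genes over the 9 arrays. Each gene was centred on its own mean but not scaled, so the size of changes counts as well as their shape. The closest pair was Clec1b and Gp9 (0.09), then Itga2b and Gp5 (0.10). Gp6 and Itga2b were farthest apart (0.54). Outside the 9 genes, those nearest to Itga2b were Myct1 (0.07), Ptprcap (0.09), Mmrn1 (0.10), Gabbr1 (0.10), P3h2 (0.10) and Gfi1b (0.10). Mmrn1 encodes multimerin, a platelet α-granule protein, and Gfi1b a repressor needed for megakaryocyte and erythroid maturation. Myct1 rose by 1.69 and fell by 2.50, and its other 3 probe sets moved alike, by 2.04 to 2.12 and -2.39 to -2.94. Mmrn1 (1.79 and -2.67) and Gabbr1 (1.94 and -2.63) changed less with their probe sets averaged, by 1.03 and -1.54 and by 0.93 and -1.07, each still called.

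Most other platelet receptors were higher on OP9-DL1 and lower with CompoundE. Of 27 measured genes 19 were called higher on OP9-DL1 and 4 lower (15.9% and 16.7% of all genes), with a median of 0.75, and with CompoundE 17 were called lower and 6 higher (21.6% and 25.1%), with a median of -0.62. The 4 lower on OP9-DL1, listed after their values were seen, were Itga5, Cd36, Cd84 and Ceacam1, with Cd36 at background in all groups. The thrombin receptor genes F2r (1.51, then -2.22) and F2rl2 (1.86, then -2.36), the adhesion molecule gene Esam (2.23, then -2.82), the platelet and endothelial receptor gene Pear1 (1.65, then -2.59) and the P-selectin gene Selp (1.33, then -2.19) rose and then fell. Averaged over 4 probe sets the Pear1 fall was -1.62. The ADP receptor gene P2ry12 and the junction gene F11r, chosen after their values were seen, were exceptions. P2ry12 averaged 4.34 in the control cultures, 4.72 on OP9-DL1 and 5.67 with CompoundE, and it rose by 0.94 with CompoundE (adjusted p = 4.01e-05; 0.50 with log2(value + 32)). Its difference of 0.39 on OP9-DL1 was called (adjusted p = 0.0485) but not with log2(value + 32) (0.16, adjusted p = 0.0686), nor under 11 of 17 alternatives in all, among them leaving out any 1 of 6 arrays: OP9-GFP replicate 1 or 3, any OP9-DL1 replicate or CompoundE replicate 1. F11r rose by 0.86 on OP9-DL1 (0.44 with its 2 probe sets averaged) and differed by 0.16 with CompoundE (adjusted p = 0.187), called higher with arrays centred (0.30, adjusted p = 0.0165).

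Genes of the signalling path inside the platelet were called in both directions. Of 26 measured, 11 were called higher and 6 lower on OP9-DL1 (15.9% and 16.7% of all genes). Their median was 0.16, beside -0.02 for all genes. With CompoundE 10 were called higher and 10 lower (25.1% and 21.6% of all genes), with a median of -0.02 beside 0.08. The same shares of all genes apply to the full lists that follow. Counts under a filter or another setting, here and below, have no such share beside them. Beside Lat, the Src-family kinase gene Fyn rose by 1.21 and fell by 1.58, and the G protein gene Gnai2 did the opposite (-0.78, then 0.91). Among the 20 of these genes without equal values within a group, 3 were lower on OP9-DL1 and 6 higher with CompoundE. Of 15 ligand genes 6 were called higher and 1 lower on OP9-DL1 (median 0.13), and 7 lower and 2 higher with CompoundE. Vwf, made by megakaryocytes and endothelium, rose by 1.68 and fell by 2.18, Col3a1 rose by 1.89 and fell by 0.69, Col4a1 rose by 1.82 and fell by 1.22, and Col1a1 rose by 0.52 and fell by 0.53. The other Col1a1 probe set differed by 0.19 on OP9-DL1, not called over all probe sets (limma adjusted p = 0.124). With CompoundE it differed by -0.29, which was called. Col1a2 differed by -0.04 on OP9-DL1 (adjusted p = 0.673), a sign that turned with its probe sets averaged (0.22), and fell by 0.48. The single lower ligand gene on OP9-DL1 was Pdpn, and that count was 3 with centring, 3 with probe sets averaged, 0 of 7 in the brighter part of the genes, and 2 on the 6 arrays compared or without CompoundE replicate 2 or 3. The fibrinogen genes Fga and Fgg and the vitronectin gene Vtn were at background in all groups.

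Platelets shed Gp1ba, Gp5 and Gp6 through proteases. Of 9 genes for these enzymes and their regulators, 2 were called higher and 4 lower on OP9-DL1, and 5 higher and 4 lower with CompoundE (3 higher after quantile normalization). The sheddase gene Adam17 fell by 0.18 and then rose by 0.34, the calpain genes Capn2 (-1.11, then 1.43) and Capn1 (-0.33, or -0.51 with probe sets averaged, then 0.68) did the same, and the inhibitor genes Timp3 (1.19, then -1.94) and Timp1 (0.59, then -0.43) did the opposite. Other Adam17 probe sets each differed by -0.12 on OP9-DL1, not called over all probe sets (limma adjusted p = 0.59 and 0.155). Their rises with CompoundE, 0.38 and 0.25, were called. Tspan15, a partner of the sheddase Adam10 and the remaining lower gene, was at background in all groups. The tetraspanin gene Tspan33 fell by 1.04 with CompoundE.

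Of 20 megakaryocyte transcription factor genes 13 were called higher and 2 lower on OP9-DL1 (median 0.35), and 12 lower and 3 higher with CompoundE (median -0.48). Gata1 (2.15, then -2.98), Gata2 (1.82, then -2.72), Gfi1b (1.84, then -2.76) and Ets1 (1.94, then -2.44) were among them, and Fli1, the ETS factor best known from megakaryocytes and chosen after its values were seen, rose by 0.49 and fell by 0.53. The other Fli1 probe set differed by 0.31 on OP9-DL1, not called over all probe sets (limma adjusted p = 0.0593). With CompoundE it differed by -0.36, which was called. Of 20 granule and cytoskeleton genes, Vwf and Selp among them, 15 were higher and 2 lower, then 17 lower and 2 higher (medians 1.20 and -1.54). These included Slc35d3 (3.10, then -4.34), Tubb1 (2.70, then -2.08), Rab27b (1.5, then -2.29), Mmrn1 and Pf4 (1.06, then -1.68). Tubb1 stayed 0.62 above OP9-GFP with CompoundE (adjusted p = 2.17e-05), where 8 of the 9 surface genes were lower. F13a1, which macrophages express too (chosen after its values were seen), fell by 1.24 and rose by 1.26.

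**Figure D4:**
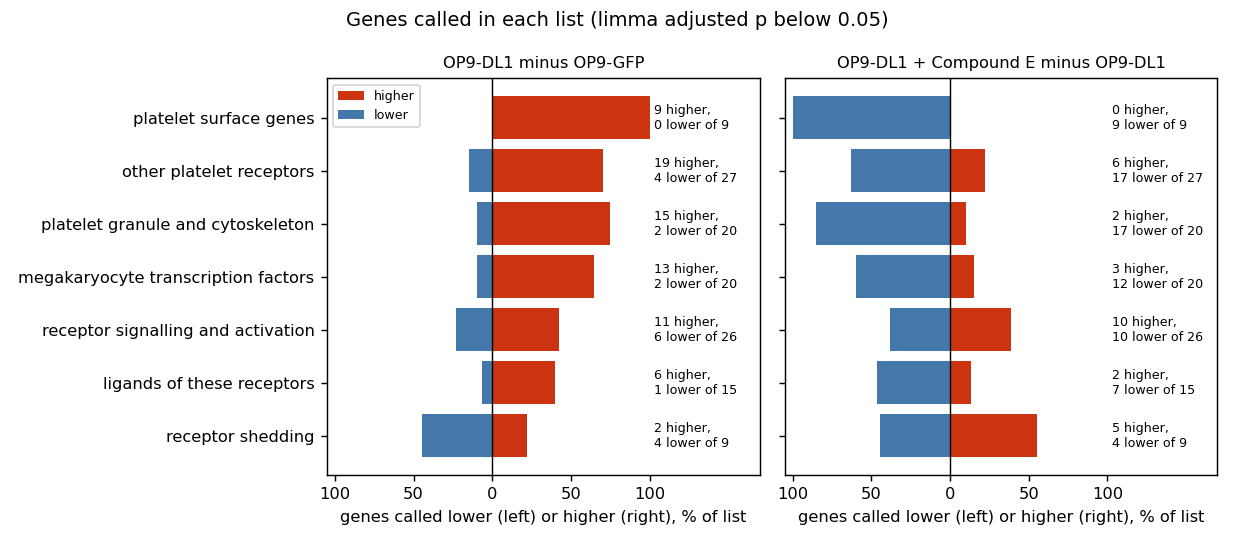
Share of each list's measured genes (x axis, percent) called higher (right, red) or lower (left, blue) at a limma adjusted p below 0.05, for OP9-DL1 against OP9-GFP and for CompoundE against OP9-DL1, with the counts beside the bars. All 9 platelet surface genes were called in each panel, and the signalling and shedding lists were split.

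Counts for markers of other cells follow for OP9-DL1 against OP9-GFP unless stated. Of 24 stromal genes 18 were called higher and 1 lower on OP9-DL1, and 19 lower and 1 higher with CompoundE. Their summed level on the linear scale ran from 20883 to 21006 on OP9-GFP, 33316 to 33700 on OP9-DL1 and 20782 to 21235 with CompoundE, with Dcn and Lum at background throughout and Thy1 on OP9-GFP. The summed level of the 9 platelet surface genes ran from 5561 to 5818, 16084 to 16689 and 3845 to 4016. The part of stromal RNA in the results, above all for Itgb3 and Cd9, was not tested. Mast cell genes were higher in 8 of 13 and lower in 2 (summed level 6234 to 6283, 9869 to 10143 and 4224 to 4341), with Mcpt1, Mcpt4 and Tpsab1 at background on OP9-GFP and with CompoundE, and Tpsab1 and Cma1 on OP9-DL1. With CompoundE 9 mast cell genes were lower and 1 higher (21.6% and 25.1% of all genes). Their medians were 1.09 and then -2.08, beside 1.66 and -2.24 for the 9 platelet surface genes. Of 14 endothelial genes, 9 were higher and 1 lower (1033 to 1098, 2716 to 3030 and 706 to 837), but Vwf, Esam, Pecam1 and Tek are also megakaryocyte or progenitor genes, and Emcn, Plvap, Cldn5 and Sox17 were at background in all groups. Of 16 erythroid genes 7 were higher (7133 to 7398, 12372 to 12712 and 5596 to 5840), with Hba-a1, Alas2 and Rhag at background in all groups. Stem and progenitor genes were higher in 9 of 15 and lower in 5 (11275 to 11599, 14078 to 14860 and 9287 to 9831), with none at background. Kit is also in the mast cell list, Tek and Esam in the endothelial list and Gata2 in the transcription factor list. Likewise Col1a1, Col1a2, Col3a1 and Thbs1 are in both the ligand and stromal lists, and Timp3 in the shedding and stromal lists. The counts of different lists are therefore not separate. Granulocyte genes were split, with 7 of 14 higher and 6 lower (42176 to 42624, 49525 to 50864 and 45487 to 45978). Monocyte and macrophage genes went the other way: 17 of 19 were lower on OP9-DL1 and 15 higher with CompoundE (40984 to 42759, 19987 to 20233 and 44665 to 47247), with C1qa at background. With CompoundE, 8 endothelial, 8 erythroid, 11 stem and progenitor and 7 granulocyte genes were called lower, and 0, 1, 3 and 5 higher. Medians on OP9-DL1 and then with CompoundE were 0.83 and -1.01 for stem and progenitor genes and 0.78 and -0.62 for stromal genes. They were 0.43 and -0.58 for endothelial and 0.25 and -0.45 for erythroid genes. Among genes without equal values within a group, 5 of 10 mast cell, 5 of 10 endothelial and 4 of 10 granulocyte genes were higher and 3 of 12 stem cell genes lower, and in the brighter part of the genes 4 of 5 erythroid genes were higher. No share of all genes is given for these filtered counts. The part of any of these cells in the results was not tested.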

How the data were processed

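Gene expression was measured on 9 single-colour oligonucleotide arrays, 3 a group, grouped by sample title. The values the authors deposited are on a log2 scale, 1 for each probe set of an array. MAS5 and GCRMA 2.4.1 are named, per the submitters' processing notes, without saying what each did; the sources used here do not tell which of them gave the values. Per the labels' protocols the RNA was amplified before labelling. Depth has no counterpart on arrays, and their number limits the precision.

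Gene names came from the annotation of the array platform, with symbols updated by Entrez ID from RefSeq (GRCm38.p6, names and promoters only). Of 45101 probe sets 34945 had 1 symbol, 932 several, 9160 none and 64 were controls. A gene (18193 in all) was represented by whichever of its probe sets had the highest mean, and a second fit covered all probe sets. Both fits used limma 3.58.1 under R 4.3.3, with a trended eBayes prior, all 9 arrays and no covariate. Benjamini-Hochberg adjustment ran over each whole table, with a threshold of 0.05. The procedure was checked on simulated data, but the outcome is not given here, so that check backs none of the results. Background is the highest value of 27 bacterial control probe sets. Lists are described by counts and medians, without the 9 genes themselves. Genes named were the 9, those of each pathway list with the lowest p (up to 4 in either of the first 2 comparisons) and the 6 nearest to Itga2b in profile; cell type lists are given as counts and summed levels. The members and lists were chosen with earlier results of these data known. Alternatives were log2(value + 32), quantile normalization, centring on array medians, the brighter part of the genes, averaged probe sets, no trend, fits on 6 arrays only, a replicate block, single arrays left out, a 2-fold threshold and, added after the data were seen, genes without equal values within a group, and the same settings for probe sets, lists and other genes. Since the values are logs, log2(value + 1) was not run.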

Additional observations from a re-analysis of the deposited data

How the results depend on the processing

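All 9 rises on OP9-DL1 and all 9 falls with CompoundE stayed called under each alternative that kept the gene, Gp6 being left out of the brighter part of the genes, and Itga2b, Itgb3 and Cd9 of the genes without equal values. The count of 8 genes lower with CompoundE than on OP9-GFP ran from 6 to 8 with each array left out. It was 5 of the 6 genes without equal values within a group, and 0 at a 2-fold threshold. By probe set the 9 lower ran from 6 to 9 with each array left out and became 0 at a 2-fold threshold, and 1 probe set, that shared by Septin5 and Gp1bb, was called higher with arrays centred on their medians and also 1 without the intensity trend. Outside the 9 genes, the OP9-DL1 difference of Col1a2 turned from -0.04 to 0.22 with probe sets averaged, and that of Tspan33, 0.10, ran from -0.04 to 0.24 with each array left out and turned to -0.0386 without OP9-GFP replicate 3, neither called at first. The causes were not tested. Same-numbered arrays of different groups had correlations of deviations from -0.11 to 0.12, so the numbers were not taken to pair the samples. With the replicate number as a block, 9, 9 and 8 of the 9 genes were called in the 3 comparisons. By probe set, 12, 12 and 8 were called. Shares over all genes or probe sets under these alternatives are not given, so the counts above have no background beside them. Low signal over background limits Gp6, the dimmer Itgb3 probe set, the one shared by Septin5 and Gp1bb, and P2ry12, and genes at background such as Cd36 and Tspan15 more so.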
